A study of Mus musculus with 6 samples.

Results

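The Hedgehog genes described here are 9 in number, out of 19938 genes that the arrays measured with their own probe set. They are the ligand genes *Shh*, *Ihh* and *Dhh*, the receptor gene *Ptch1*, the signal transducer gene *Smo*, the transcription factor genes *Gli1*, *Gli2* and *Gli3*, and *Hhip*, which encodes a ligand-binding antagonist. They were chosen by name, as probe sets annotated with exactly 1 gene symbol that is one of these, and each of the 9 had exactly 1 such probe set. RNA came from retinal pigmented epithelium (RPE) dissected from C57BL/6J mouse embryos at E15.5, and cDNA made from 300 ng of total RNA per sample was hybridised to an Affymetrix mouse array. By design the controls were *Pax6loxP/loxP* embryos and the mutants *Pax6loxP/loxP;DctCre* embryos, so both carry the floxed *Pax6* alleles and only the mutants carry Cre. There are 3 arrays labelled control and 3 labelled mutant, and which genotype stands behind each label is in doubt, as described further on. Cre is driven by the promoter of *Dct*, a melanin synthesis gene that is active in the outer layer of the optic cup and in other pigment cells, and it removes the exons that encode the start codon and the paired domain of PAX6. The methods name littermates as controls, and dissected RPE of several embryos was pooled by how strongly it was pigmented.

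Hedgehog ligands are secreted proteins that bind PTCH1. Without ligand PTCH1 restrains SMO, and with ligand SMO acts at the primary cilium to turn the GLI factors from repressors into activators, GLI2 being the main activator and GLI3 the main repressor. *Gli1*, *Ptch1* and *Hhip* are themselves transcribed in response to the signal and serve as its usual readouts. In the mouse eye SHH is made by retinal ganglion cells, and IHH by endothelial cells of the choroid, which lies against the RPE.

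The group names of the arrays are in doubt, and this touches every direction given here. The authors' deposited table of 100 selected entries gives a mean log2 signal for each group. Of 90 entries that were matched to a probe set by symbol or RefSeq number, 0 had both means within 0.1 of those of the arrays as labelled, and 90 did with the group names exchanged. None of the Hedgehog genes is in that table (0 of 9). The sample labels were kept, each difference was taken as mutant label minus control label, and the study reads the same arrays in the opposite direction. *Pax6* itself gave log2 signals of 9.15, 9.02 and 9.22 on the control-labelled arrays versus 8.998, 8.967 and 8.738 on the mutant-labelled ones, a difference of -0.23 (adjusted p = 0.73 from limma). The positions of its probes relative to the deleted exons are not known here, so its level does not settle the labels. The melanosome gene *Mlana* was higher on the mutant-labelled arrays by 2.07, and this too is a direction that turns if the names are exchanged.

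Across probe sets, pairs of the 6 arrays had correlations from 0.992 to 0.995, and their median signals lay between 4.86 and 4.93. The files hold no detection call, so 1224 olfactory, vomeronasal and taste receptor genes, which are expected to be silent in this tissue, were taken as a guide to background, with the 95th percentile of their signal between 3.64 and 3.80 on the 6 arrays. All 15 RPE markers on a fixed list had a probe set, and 12 of them lay above that percentile on all 6 arrays, while *Rpe65* and *Lrat*, genes of the visual cycle, lay above it on 0 of 6 and *Best1* on 4 of 6. RPE is a thin layer, and markers of its neighbours also gave signal. All 11 measured retinal progenitor markers, 11 of 12 ganglion cell markers, 13 of 13 endothelial markers and 12 of 13 periocular mesenchyme markers lay above that percentile on every array. It is a low bar, since *Dhh*, at percentile 26.0 of mean signal over all genes, also lay above it on all 6 arrays. The share of all genes above it was not computed, so these counts alone do not show which cells were present. In such pools, fewer cells of a type and less RNA per cell cannot be told apart.

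*Hhip* and *Gli2* were the only Hedgehog genes whose groups of arrays did not overlap (2 of 9, against 11.0% of all probe sets tested). Neither had an adjusted p under 0.05 by limma. The 250 bases before their annotated starts are shown because these 2 had the smallest p of the 9 genes. Both are from RefSeq, build GRCm38.p6, read 5′ to 3′ on the strand of the gene. *Hhip* is at chr8:80058009-80058258 on the minus strand and *Gli2* at chr1:119053620-119053869 on the minus strand. Capitals mark GC boxes, GGGCGG or its reverse complement CCGCCC.
Hhip: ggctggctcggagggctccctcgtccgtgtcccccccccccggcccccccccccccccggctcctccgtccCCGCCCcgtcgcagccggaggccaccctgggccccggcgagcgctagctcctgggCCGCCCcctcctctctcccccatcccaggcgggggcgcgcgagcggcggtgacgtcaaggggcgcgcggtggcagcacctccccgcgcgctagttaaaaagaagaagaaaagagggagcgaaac
Gli2: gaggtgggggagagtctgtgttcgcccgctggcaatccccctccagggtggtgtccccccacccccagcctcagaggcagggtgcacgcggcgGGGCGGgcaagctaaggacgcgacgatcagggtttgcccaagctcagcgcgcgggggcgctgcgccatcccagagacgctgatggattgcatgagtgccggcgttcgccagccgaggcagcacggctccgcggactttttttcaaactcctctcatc

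Of the 9 genes, 7 have an entry in the promoter table used here, and *Shh* and *Gli1* do not. Both windows are rich in G and C, at 76.0% for *Hhip* and 67.2% for *Gli2*. Searched on both strands, the window of *Hhip* holds 2 GC boxes and that of *Gli2* holds 1. A GC box occurs in 6 of the 7 Hedgehog promoters, *Smo* being the exception, and in 32.7% of all 32851 promoter windows of the same length. The 7 windows hold from 59.6% (*Dhh*) to 78.4% (*Ptch1*) G and C. No background of like content was taken, so the GC boxes are not shown to be particular to these genes. The consensus of the GLI factors, GACCACCCA, was found on neither strand in any of the 7 windows (0 of 7), against 0.225% of all windows, which says only that these letters are not in these 250 bases.

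No Hedgehog gene passed the test between the groups, and their differences were small. By limma 0 of 9 had an adjusted p under 0.05, where 0.363% of the 23410 named probe sets did (adjustment by Benjamini-Hochberg over all of them). At an unadjusted p under 0.05 there were 2, *Hhip* and *Gli2*, where 6.07% of all probe sets met it. At the study's threshold, an unadjusted p under 0.05 with a fold of at least 1.5, there were 0, where 0.427% passed. The methods' t-test gave the same counts, 0 after adjustment and 2 before it. The groups did not overlap for 2 of 9 genes, against 11.0% of all probe sets tested. The median log2 difference over the 9 genes was 0.01 and that over all genes -0.0007, and the median size of the difference, regardless of sign, was 0.066 and 0.055.

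The 95% confidence intervals of all 9 differences lay inside the range from a 1.5-fold decrease to a 1.5-fold increase. The lowest bound was that of *Shh*, at -0.45, a 1.36-fold lower signal, and the highest was that of *Gli3*, at 0.40, a 1.32-fold higher one. The same holds for 97.5% of all 19938 genes, so it does not set the Hedgehog genes apart. A p that misses the threshold does not show that the levels were equal, but differences beyond these bounds lie outside the intervals. The intervals are of array signal, and those of *Shh* and *Dhh* are limited by signals near background.

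**Figure D1:**
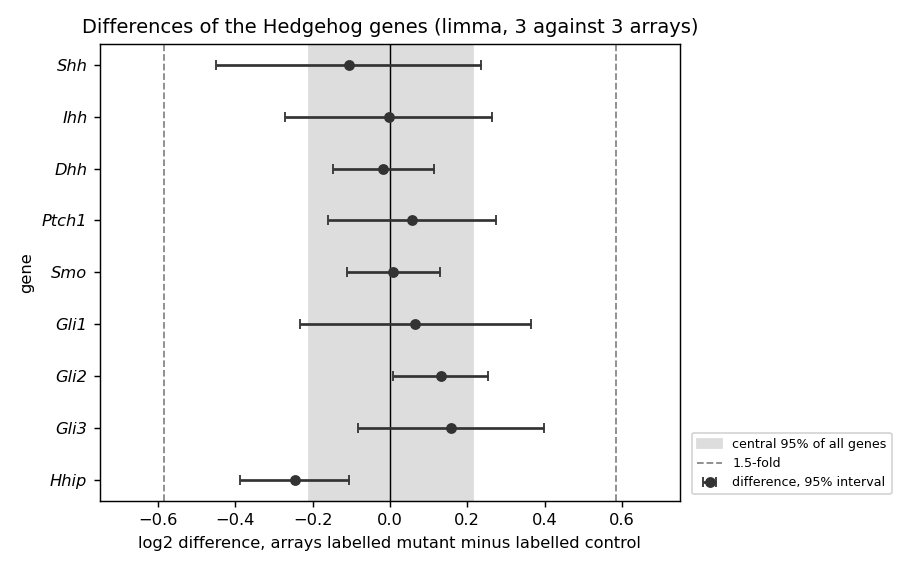
Log2 differences of the 9 Hedgehog genes, arrays labelled mutant minus those labelled control (x axis), one gene per line. Points are limma estimates from 3 against 3 arrays, bars their 95% confidence intervals, the grey band the central 95% of all genes (-0.21 to 0.21) and the dashed lines 1.5-fold. *Hhip* at -0.25 is the one point outside the band, and every interval ends before the dashed lines.

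None of the 3 ligand genes passed the test, and the groups overlapped for each. *Ihh* gave log2 signals of 5.71, 5.75 and 5.86 on the control-labelled arrays versus 5.54, 6.02 and 5.75 on the mutant-labelled ones. The lowest and the highest array both carried the mutant label, and the difference was -0.003 (95% confidence interval -0.27 to 0.26, adjusted p by limma 0.9995). *Ihh* lay above the median signal and above the background guide on all 6 arrays. The endothelial markers, whose cells are the known source of *Ihh* beside the mouse RPE, had a mean log2 signal of 7.40 to 7.82 on the control-labelled arrays versus 7.47 to 7.66 on the mutant-labelled ones, and 0 of 13 passed the test.

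*Shh* was dim and varied most among the 9 genes. Its log2 signals were 4.69, 4.09 and 4.59 on the control-labelled arrays versus 4.42, 4.39 and 4.24 on the mutant-labelled ones, below the array median on all 6 and at least 0.40 above the background guide. Control replicate 2 was the lowest array and control replicate 1 the highest, so the control group enclosed the mutant one. The difference was -0.11 with a standard error of 0.15 (95% interval -0.45 to 0.24, adjusted p = 0.99). It was -0.29 without control replicate 2 (adjusted p = 0.38) and 0.01 without control replicate 1. *Dhh*, the ligand known from Schwann cells and the testis, lay at 3.84, 3.83 and 3.84 on the control-labelled arrays versus 3.83, 3.88 and 3.75 on the mutant-labelled ones, as little as 0.05 above the background guide. The groups overlapped, and the difference was -0.02 (adjusted p = 0.99).

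The ganglion cell markers, whose cells are the known source of *Shh* in the mouse retina, varied between arrays within each group. The mean log2 signal of these 12 markers was 7.18, 5.95 and 6.65 on the control-labelled arrays versus 6.93, 6.58 and 5.92 on the mutant-labelled ones. Control replicate 2 and mutant replicate 3 were lowest in both measures, and control replicate 1 was highest in both. Pearson's r between *Shh* and the ganglion cell markers was 0.88 (exact permutation p = 0.029) and Spearman's rho 0.89 (exact permutation p = 0.033), over 6 arrays, and r was 0.59 without the 2 arrays farthest from the median of the markers. This relation was singled out after its values were seen, as one of 54 between the 9 genes and 6 marker lists, and it did not pass the adjustment over all of them (adjusted p = 0.39 for r, two-sided exact permutation tests, 0.45 for rho). Over 6 arrays the permutation p cannot become small enough for 1 relation alone to pass this adjustment, however strong. The relation of *Shh* was not particular to the ganglion cell list. With the retinal progenitor markers *Shh* had r = 0.82 (exact permutation p = 0.043, adjusted p = 0.39) and the same rho. Within a group 3 arrays are too few for the relation to be tested. With the mean of the ganglion cell and retinal progenitor markers as a covariate, a fit added after the data were seen, the difference of *Shh* was -0.05 (adjusted p = 0.97).

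**Figure D2:**
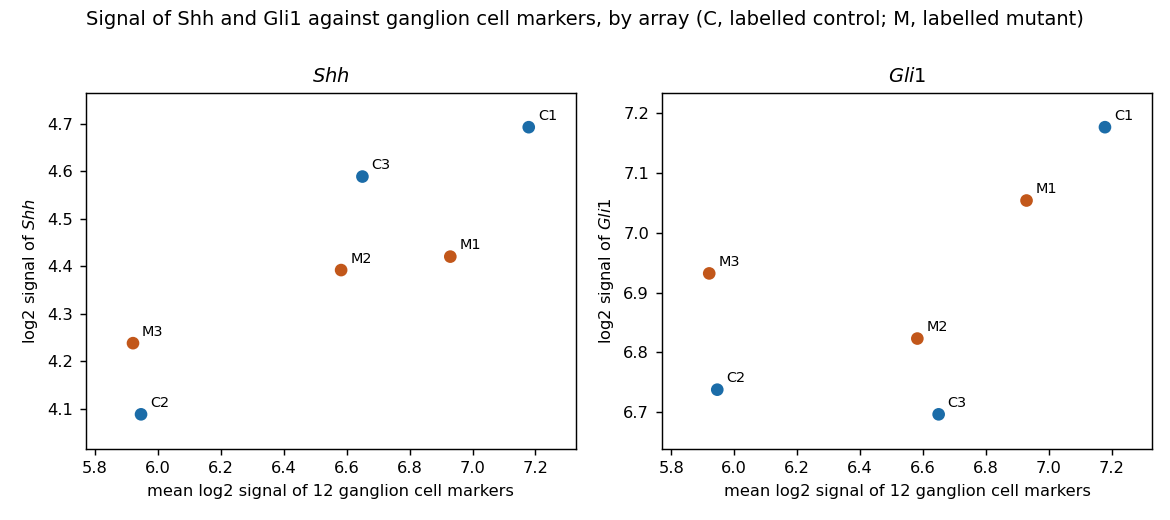
Log2 signal of *Shh* (left) and *Gli1* (right) on the y axis against the mean log2 signal of 12 ganglion cell markers on the x axis, one point per array (blue, labelled control, orange, labelled mutant). The arrays C2 and M3 are lowest and C1 is highest in both measures for *Shh* (r = 0.88), and r is 0.60 for *Gli1*. Without the 2 arrays farthest from the median of the markers, r is 0.59 for *Shh* and 0.93 for *Gli1*. The difference between the r values of the 2 genes was not tested.

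The receptor gene and the transducer gene had overlapping groups and differences under 0.1. *Smo*, the membrane protein that carries the signal across the membrane, gave log2 signals of 9.03, 9.08 and 9.03 on the control-labelled arrays versus 9.05, 9.05 and 9.07 on the mutant-labelled ones. All 6 values lay within 0.058, the narrowest range of the 9 genes, and the difference was 0.01 (95% confidence interval from -0.11 to 0.13, adjusted p = 0.99). *Ptch1* had 8.048, 8.0002 and 7.874 on the control-labelled arrays versus 8.22, 7.99 and 7.88 on the mutant-labelled ones. Its groups overlapped, mutant replicate 1 being the highest array, and the difference was 0.06 (standard error 0.09, adjusted p = 0.99). Without mutant replicate 1 it was -0.04.

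*Gli1*, the activator that is itself a target of the pathway, lay at 7.18, 6.74 and 6.70 on the control-labelled arrays versus 7.05, 6.82 and 6.93 on the mutant-labelled ones. Control replicate 1 stood above the other 5 arrays and mutant replicate 1 came next. The groups overlapped, with a difference of 0.07 (standard error 0.13, adjusted p = 0.99). Without control replicate 1 it was 0.22 (unadjusted p = 0.031, adjusted p = 0.70). The same 2 arrays were highest in the retinal progenitor markers, at 7.82 and 7.65 against 6.50 to 7.38 on the other 4, and lowest in the endothelial markers, at 7.40 and 7.47 against 7.61 to 7.82. The part of either cell type in the *Gli1* signal was not tested beyond a fit with the mean of the 2 neural marker lists as covariate, which gave a difference of 0.10 (adjusted p = 0.95).

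*Gli2*, the main activator, gave log2 signals of 6.80, 6.82 and 6.86 on the control-labelled arrays versus 6.98, 6.93 and 6.97 on the mutant-labelled ones. All 3 arrays labelled mutant lay above all 3 labelled control, with a gap of 0.07 between the groups. The mean was 6.83 ± 0.03 (SD, n = 3) in the control group and 6.96 ± 0.03 in the mutant group. The difference was 0.13 (standard error 0.05, 95% confidence interval from 0.01 to 0.25), a 1.09-fold higher signal with an unadjusted p of 0.039 that did not pass the adjustment (adjusted p = 0.78 from limma). The methods' t-test on the same values gave an unadjusted p of 0.0043 and an adjusted p of 0.56. Of all genes, 15.6% differed by more and 5.22% had a smaller p. With 1 array left out the unadjusted p was as high as 0.097 and the difference 0.12 to 0.15.

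*Gli3*, the main repressor, had 7.37, 7.55 and 7.22 on the control-labelled arrays versus 7.37, 7.63 and 7.61 on the mutant-labelled ones. The groups overlapped, since mutant replicate 1 was level with control replicate 1 and below control replicate 2. The difference was 0.16 (standard error 0.10, adjusted p = 0.95). With 1 array left out it ran from 0.08 without control replicate 3 to 0.24 without control replicate 2 or mutant replicate 1, and the adjusted p was at least 0.58. All 3 Gli genes had a difference above 0 and none passed the test.

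*Hhip*, whose product sits on the cell surface and sequesters the ligands, showed the largest difference of the 9 genes. Its log2 signals were 7.79, 7.86 and 7.85 on the control-labelled arrays versus 7.50, 7.65 and 7.62 on the mutant-labelled ones. Every array labelled mutant lay below every array labelled control, with a gap of 0.15 between the groups. The mean was 7.84 ± 0.04 (SD, n = 3) in the control group and 7.59 ± 0.08 in the mutant group. The difference was -0.25 (standard error 0.06, 95% confidence interval from -0.39 to -0.10), a 1.19-fold lower signal in the arrays labelled mutant, with an unadjusted p of 0.0039. It did not pass the adjustment over all probe sets (adjusted p = 0.33 from limma, 0.62 from the methods' t-test), and 1.32% of all genes had a smaller p. With any 1 array left out the difference stayed between -0.27 and -0.20, with an unadjusted p of at most 0.015 and an adjusted p of at least 0.40.

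The other usual readouts of the signal, *Gli1* and *Ptch1*, had differences of the opposite sign, 0.07 and 0.06, with groups that overlapped, and the difference between their contrasts and that of *Hhip* was not tested. Markers of Schwann cells and melanocytes had a mean log2 signal of 5.71 to 5.72 on the control-labelled arrays versus 5.63 to 5.69 on the mutant-labelled ones, groups that did not overlap either, although 0 of 9 passed the test. The RPE markers ran from 6.93 to 7.24 on the arrays labelled control and from 7.47 to 7.57 on those labelled mutant. At an adjusted p under 0.05 by limma, 5 of 15 were higher on the mutant-labelled arrays and 1 was lower, where 0.363% of all probe sets passed. Among them *Mlana* was higher by 2.07, *Rrh* by 1.35 and *Rlbp1* by 1.001, and *Ttr* was lower by 2.10 on the log2 scale. These directions turn if the group names are exchanged. Of the 54 relations between the 9 genes and the marker lists, 6 had an unadjusted p under 0.05 for r and 0 an adjusted one, by exact permutation tests over the 6 arrays. The smallest of these was for *Hhip* with the Schwann cell and melanocyte markers, at r = 0.90 (exact permutation p = 0.0097), rho = 0.94 (exact permutation p = 0.017) and r = 0.95 without the 2 arrays farthest from the markers' median. *Gli2* with the RPE markers had r = 0.92 (exact permutation p = 0.025), rho = 0.77 (exact permutation p = 0.10) and r = 0.97 without such arrays. The adjusted p was 0.39 for both r, and over 6 arrays 1 relation alone could not have passed this adjustment. In both relations the gene and the markers separate by label, so over 3 arrays a group a relation with the markers and a difference between the labels cannot be told apart.

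**Figure D3:**
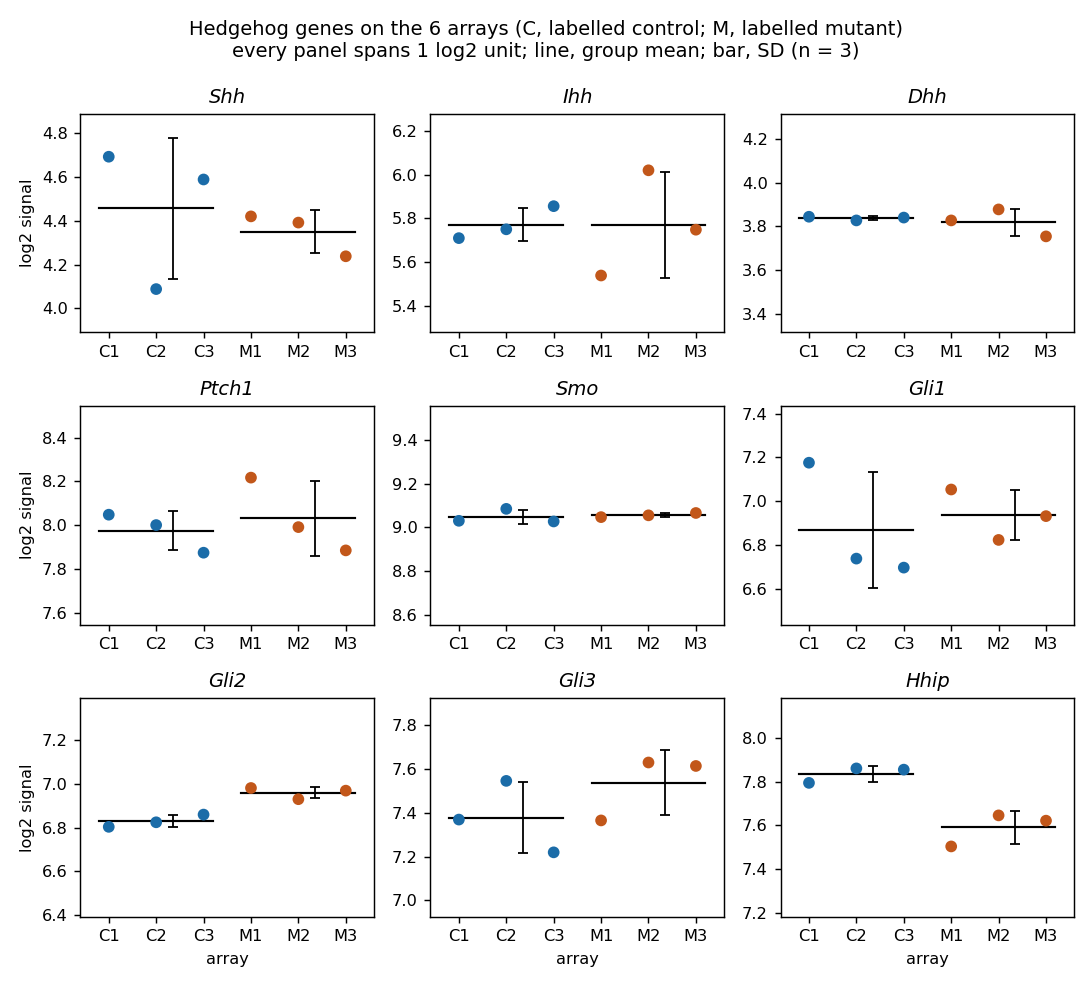
Log2 signal (y axis) of each of the 9 Hedgehog genes on the 3 arrays labelled control (blue, C1 to C3) and the 3 arrays labelled mutant (orange, M1 to M3). Lines are group means, bars the SD (n = 3), and every panel spans 1 log2 unit. The groups separate for *Gli2* (control up to 6.86, mutant from 6.93) and *Hhip* (control from 7.79, mutant up to 7.65) and overlap in the other 7 panels.

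The genes whose pattern was most like that of *Hhip* over the 6 arrays, among 11957 genes of at least median signal, were *Wt1* (Pearson's r = 0.994), *Vegfa* (0.991), *Bclaf1* (0.988), *Dpp3* (0.986) and *Pcdh9* (0.985). They were picked for this likeness from many genes over 6 arrays, so the r values are a description. *Wt1*, a zinc finger transcription factor, had 5.53, 5.58 and 5.64 on the control-labelled arrays versus 4.48, 4.94 and 4.85 on the mutant-labelled ones. Its log2 difference was -0.83 (adjusted p = 0.033 from limma). *Vegfa*, the growth factor that RPE supplies to the choroidal vessels, differed by -0.18 (adjusted p = 0.52). *Bclaf1*, *Dpp3* and *Pcdh9* differed by -0.11, -0.07 and -0.28, and none of the 3 passed the test.

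Beyond these 9, a list of 66 other genes of Hedgehog release, reception, transduction and response held 61 with their own probe set. By limma 0 of the 61 passed after adjustment (0.363% of all probe sets did) and 1 had an unadjusted p under 0.05 (6.07% of all), while the methods' t-test gave 0 after adjustment. The groups did not overlap for 4 of the 61 (*Scube3*, *Ift122*, *Ulk3* and *Ccnd2*), against 11.0% of all probe sets, and the median difference was -0.02. The 95% confidence interval of 60 lay inside 1.5-fold in either direction, as did that of 97.5% of all genes. The exception was *Ccnd1*, a cyclin gene, at 10.5, 9.65 and 10.1 on the control-labelled arrays versus 10.4, 9.90 and 9.50 on the mutant-labelled ones. Its difference was -0.15 with a standard error of 0.26, and its highest and lowest arrays were those of the retinal progenitor markers, a list that also holds it.

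In release and reception, 0 of 12 measured genes passed, with a median difference of -0.06. *Scube3*, a secreted protein of a family that helps to release Hedgehog ligands, was the single pathway gene at an unadjusted p under 0.05. It gave log2 signals of 8.13, 8.30 and 8.06 on the control-labelled arrays versus 8.01, 7.83 and 7.77 on the mutant-labelled ones. The groups did not overlap, and the difference was -0.29 (standard error 0.09, unadjusted p = 0.011, adjusted p = 0.52). *Lrp2*, the endocytic receptor megalin, which binds SHH, followed at -0.23 with overlapping groups (adjusted p = 0.95).

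In transduction and Gli control, 0 of 27 measured genes passed and 27 lay above the background guide on all 6 arrays, with differences from -0.15 to 0.09 and a median of 0.02. The smallest p values were those of *Stk36*, the homologue of fly fused, at -0.15 (adjusted p = 0.90), and of the Gli kinase gene *Ulk3*, at 0.08 (adjusted p = 0.93). The values of *Ulk3* were 5.46, 5.45 and 5.45 on the control-labelled arrays versus 5.55, 5.52 and 5.54 on the mutant-labelled ones, so its groups did not overlap at a difference of 1.06-fold. Among the targets outside the 9 genes 0 of 22 passed, with a median of -0.03. *Ccnd2*, a cyclin gene, had -0.11 (adjusted p = 0.88) and *Vax2*, a homeobox gene of the ventral optic cup, 0.15 (adjusted p = 0.93).

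**Figure D4:**
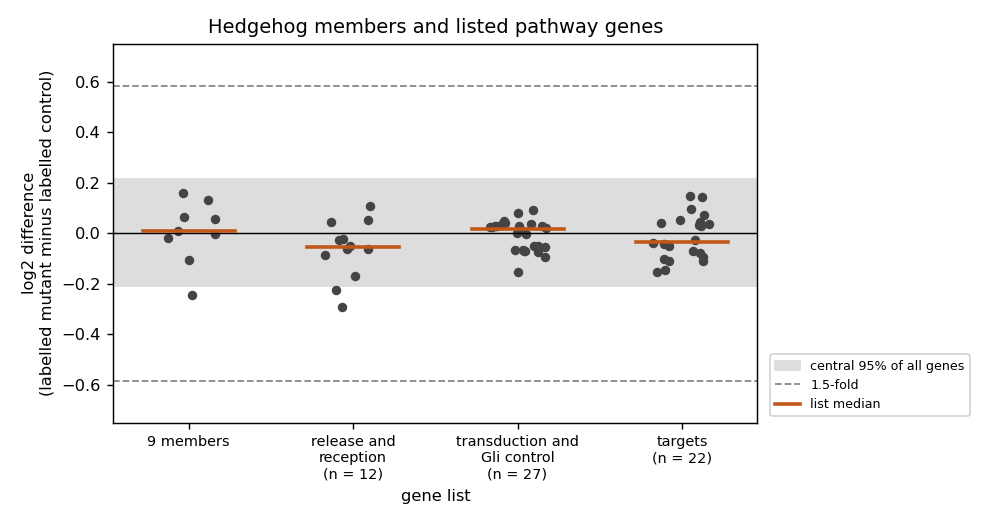
Log2 differences, arrays labelled mutant minus those labelled control (y axis), of the 9 Hedgehog genes and of 12, 27 and 22 listed pathway genes (points, spread sideways for legibility). Orange lines are list medians (0.01, -0.06, 0.02 and -0.03), the grey band holds the central 95% of all genes and dashed lines mark 1.5-fold. *Hhip* at -0.25, *Scube3* at -0.29 and *Lrp2* at -0.23 are the points below the band.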

How the data were processed

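The authors deposited a log2 signal for each of 35556 probe sets on each of 6 Affymetrix Mouse Gene 1.0 ST arrays. Partek is named in the submitters' processing notes. Its version is not given in the sources used here, nor is how background was corrected or probes were summarized. A deposited table of 100 entries also holds p-values, ratios and fold changes, which were not used, and its group means of log2 signal served only to check the array labels. Groups were taken from the sample titles, and the study's methods count each tube of pooled RPE as a biological repeat. GEO's annotation of the platform, which can be old, gave 21789 probe sets 1 symbol, 1621 several and 12146 none. No gene was named from several symbols, and the probe set of highest mean stood for a gene. The groups were compared with limma 3.58.1 in R 4.3.3 over the 23410 named probe sets, without covariates, at an adjusted p of 0.05, and the code was tested on simulated data. The study's two-tailed t-test was run as an alternative, as were other sets of probe sets, normalizations, array weights, a replicate block and fits without each array. Intervals are at 95%, and the number of arrays limits the precision.

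Named are all 9 Hedgehog genes, *Pax6*, the genes most like *Hhip*, and from each Hedgehog list the 2 genes of smallest p. *Ccnd1*, *Ift122*, *Lrat*, *Rpe65* and *Best1* were named after their values were seen. Of the RPE markers the 4 of smallest p among those that passed are named, and markers of other cell types are given by their range. The members, lists and markers were chosen with earlier results of these data known. Listed genes without a probe set of their own (5 in the pathway lists) were not analysed here.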

Additional observations from a re-analysis of the deposited data

How the results depend on the processing

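The counts of 0 Hedgehog genes and 0 listed pathway genes at an adjusted p under 0.05 held under every alternative run, as did the 0 at the study's threshold. *Hhip*, *Gli2* and *Gli3* kept the sign of their differences in all 17 of their alternatives, and *Hhip* had an unadjusted p under 0.05 in each (adjusted p from 0.20 to 0.71). Several of these alternatives leave the difference itself unchanged by construction, such as the t-test, the replicate block and other sets of probe sets, so the sign could not turn there. The count at an unadjusted p under 0.05, 2 (*Hhip* and *Gli2*), was 1 (*Hhip*) with array weights, quantile normalization, the replicate block, or the neural retina marker mean as covariate (chosen after the data were seen). With 1 array left out it was 1 to 3, not always of the same genes. It held *Hhip* alone without mutant replicate 2 or 3, *Hhip*, *Shh* and *Gli3* without control replicate 2, *Hhip* and *Gli1* without control replicate 1, and *Hhip* and *Gli3* without mutant replicate 1, so that *Gli2* was under 0.05 in 1 of these 6 fits, that without control replicate 3. Genes whose groups do not overlap numbered 2 to 4 with 1 array left out, 4 without control replicate 2. Groups separate more easily with fewer arrays, and the share over all probe sets was not computed for these fits. The median difference over the 9 genes, 0.01, was 0.057 without dim probe sets (7 genes left), 0.044 with array weights, 0.033 with equalized array medians and -0.0014 to 0.015 with 1 array left out. Signs turned for *Ihh* with array weights (0.044) and equalized medians (0.022), for *Dhh* with quantile normalization (0.0087) and equalized medians (0.0070), and for *Smo* with quantile normalization (-0.019). With 1 array left out, differences ran from -0.29 to 0.012 for *Shh*, -0.13 to 0.11 for *Ihh*, -0.046 to 0.015 for *Dhh*, -0.036 to 0.13 for *Ptch1*, -0.0014 to 0.027 for *Smo*, -0.021 to 0.22 for *Gli1* and 0.079 to 0.24 for *Gli3*. The cause of these turns was not tested. Whether the replicate numbers pair the samples was not settled. Deviations from the group means correlated at 0.37, -0.06 and 0.07 for numbers 1, 2 and 3, and at 0.37 for control replicate 2 with mutant replicate 3. With 3 arrays per group such correlations cannot decide it. *Shh* and *Dhh* are limited by signals near background.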
